A study of Mus musculus with 2 samples.

Results

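The RNA of 10 genes of the Notch pathway was followed in mouse limb: the receptors Notch1, Notch2, Notch3 and Notch4, the ligands Dll1, Dll4, Jag1 and Jag2, and the target genes Hes1 and Hey1. They were chosen by name, and all 10 symbols matched 1 gene each among the 43346 annotated genes of the tables, with 44 of 103639 transcripts. The material was whole limb of B6NCrl mouse embryos at 14.5 days, with no genetic change or treatment given in the labels. Each sample is described as the 4 limbs of a pup, and 10 ng of total RNA longer than 200 nt with added spike-in RNAs went into each library. The 2 libraries form 1 group, biological replicates 1 and 2, with 34193161 and 32879425 expected counts (estimated reads), of which 5.29% and 5.20% were spike-ins. The labels give 1 donor identifier and identical numbers for pup and pregnancy, with collection days that differ and with sex pooled, so the spread between the libraries may be partly technical. The design holds no second condition. Levels are therefore a description, as mean ± SD over n = 2 libraries.

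Notch receptors are single-pass membrane proteins that are activated by ligands on a neighbouring cell. Ligand binding exposes the receptor to cleavage by an ADAM protease and then by gamma-secretase, and the freed intracellular part enters the nucleus and joins the DNA-binding protein Rbpj and a Mastermind coactivator to switch on target genes such as those of the Hes and Hey repressors. In the limb the pathway is known for roles in blood vessels, cartilage differentiation, muscle progenitors and the apical ectodermal ridge.

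The labelled tissue showed the RNAs of limb, measured in TPM, an abundance corrected for transcript length and for the size of the library. All 4 mesenchyme markers (Prrx1, Prrx2, Msx1, Twist1) and all 4 cartilage markers (Col2a1, Acan, Sox9, Matn1) reached 1 TPM in both libraries. None of 5 markers of neighbouring organs did, and they summed to 0.78 and 0.8 TPM, led by Alb, Sftpc and Afp. Of these, Neurod1 was listed at 0 in both libraries and Nkx2-1 and Sftpc in replicate 1.

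All 10 Notch genes reached 1 TPM in both libraries, where 34% of annotated genes and 61.4% of protein-coding genes did. Together they summed to 199 and 208 TPM in replicates 1 and 2. Their levels ran from 55.8 ± 0.707 TPM for Hes1 to 3.53 ± 0.721 TPM for Notch4.

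Among the receptors, Notch2 and Notch1 were at similar levels by the TPM of the whole gene, Notch3 was lower and Notch4 the lowest. Notch2 (mm10, chromosome 3, 98013527 to 98150361, plus strand), a broadly used receptor, stood at 36.9 and 41.1 TPM in replicates 1 and 2, from 8824 and 9188 expected counts. Notch1 (chromosome 2, 26457903 to 26516663, minus strand), the receptor best known from blood vessels and lymphocytes, stood at 33.9 and 35.9 TPM. Both were in the upper part of the expressed genes, above 71.3% and 68.2% of the 13191 protein-coding genes at 1 TPM or more in both libraries. Notch3 (chromosome 17, 32120820 to 32166852, minus strand), the receptor of vascular smooth muscle and pericytes, stood at 14.9 and 13.6 TPM. Notch4 (chromosome 17, 34564268 to 34588503, plus strand), known mainly from endothelium, stood at 3.02 and 4.04 TPM from 351 and 387 counts. By TPM, replicate 2 was the higher library for Notch1, Notch2 and Notch4 and the lower one for Notch3.

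Of the ligands, Jag1 was far above the other three. Jag1 (chromosome 2, 137081456 to 137116644, minus strand), the ligand mutated in Alagille syndrome, stood at 25.3 and 27.5 TPM in replicates 1 and 2. Jag2 (chromosome 12, 112907819 to 112929776, minus strand), the ligand of the apical ectodermal ridge whose loss fuses digits in mice, stood at 7.62 and 6.53 TPM. Dll1 (chromosome 17, 15367354 to 15376872, minus strand), the ligand of somites and muscle progenitors, stood at 5.57 and 4.93 TPM. Dll4 (chromosome 2, 119325784 to 119335962, plus strand), the ligand of sprouting and arterial endothelium, stood at 3.89 and 4.75 TPM from 326 and 372 counts. Replicate 1 was the higher library for Jag2 and Dll1 and replicate 2 for Jag1 and Dll4. The values of Dll1, 4.93 to 5.57 TPM, and of Dll4, 3.89 to 4.75 TPM, did not overlap, but lay close together.

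Both target genes encode basic helix-loop-helix repressors. Hes1 (chromosome 16, 30064384 to 30067796, plus strand), which is also regulated by signals other than Notch, stood at 55.3 and 56.3 TPM in replicates 1 and 2, above 79.7% of expressed protein-coding genes. Hey1 (chromosome 3, 8663359 to 8667256, minus strand), a target in arterial endothelium and bone-forming cells, stood at 12.8 and 13.2 TPM. Their SDs, 0.707 and 0.325 TPM, were smaller in relation to their means than those of the 8 receptors and ligands.

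**Figure D1:**
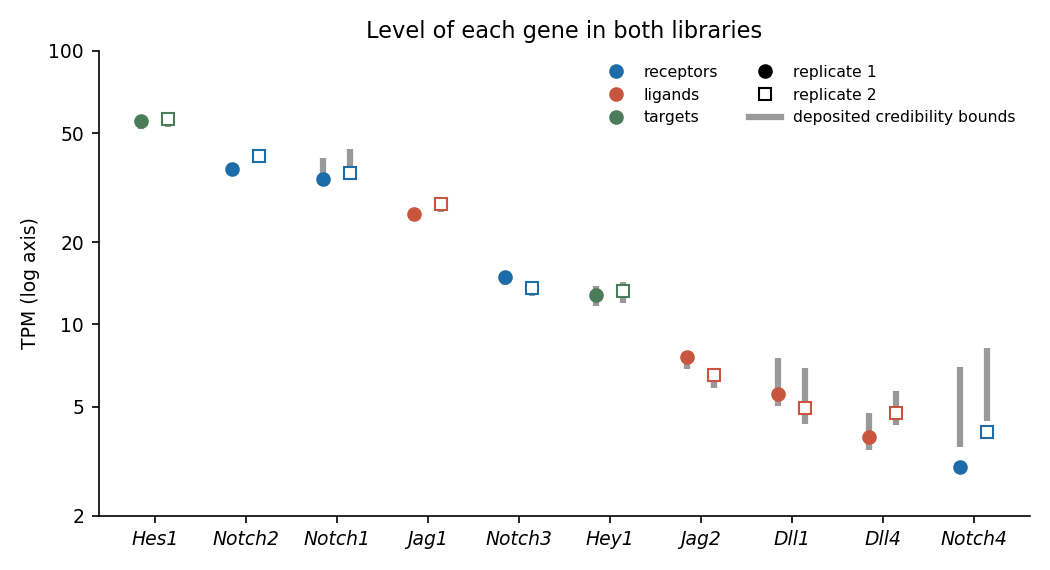
TPM (log axis) of the 10 genes in replicate 1 (filled circles) and replicate 2 (open squares), ordered by mean, coloured as receptors, ligands or targets, with grey bars for the credibility bounds that the authors deposited. Hes1 is at the top with 55.3 and 56.3 TPM, and for Notch4 the estimates of 3.02 and 4.04 TPM lie below their grey bars.

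In the order of mean levels, 4 of the 9 neighbouring pairs were set apart. A pair was called apart where its values over the libraries did not overlap and its log2 ratio exceeded the difference between libraries under which 95% of the 500 genes nearest in level stayed. Hes1 was above Notch2 by 0.52 on the log2 scale (against 0.37 for genes at that level), Notch1 above Jag1 by 0.40 (against 0.39), Jag1 above Notch3 by 0.89 (against 0.42) and Hey1 above Jag2 by 0.87 (against 0.57). The step from Notch1 to Jag1 only just passed, and it narrowed without the short transcripts described below. Notch2 and Notch1, Notch3 and Hey1, Jag2 and Dll1, Dll1 and Dll4, and Dll4 and Notch4 did not differ beyond that spread. Jag2 and Notch4, which are not neighbours, did by the deposited TPM estimates, by 0.98 (against 0.74).

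Summed by role, receptor RNA exceeded ligand RNA. The 4 receptors summed to 88.6 and 94.6 TPM in replicates 1 and 2, and the 4 ligands to 42.4 and 43.7 TPM, a log2 ratio of 1.09 ± 0.04 (SD, n = 2; 2.12-fold). Notch1 and Notch2 together exceeded Notch3 and Notch4 by 2.05 ± 0.10 (4.14-fold), and the Jagged ligands exceeded the Delta-like ligands by 1.80 ± 0.01 (3.47-fold). Both differences were larger than the spread of 0.34 and 0.49 for genes at those levels, as was that of the receptors over the ligands against 0.28. Jag1 exceeded Jag2 by 1.89 ± 0.24 (3.70-fold) and Hes1 exceeded Hey1 by 2.09 ± 0.02 (4.27-fold), against 0.48 and 0.35. Notch2 over Notch1, at 0.16 ± 0.05, and Dll1 over Dll4, at 0.28 ± 0.32, were within 0.33 and 0.83. These ratios used log2(TPM + 0.1). In whole limb they compare RNA summed over all cells and do not show which receptor and ligand meet in the same place.

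For Notch2 and Notch4, the deposited TPM fell outside the credibility bounds deposited beside it, in both libraries. The bounds of Notch2 ran from 35.2 to 36.7 TPM and, in the other library, from 39.2 to 40.9 TPM, just below its estimates. Those of Notch4 were 3.57 to 6.99 TPM and 4.42 to 8.20 TPM, above its estimates, so its exact rank depends on which deposited value is used. Among the 13191 expressed protein-coding genes, 4.35% were outside their bounds in both libraries. By the posterior mean, Notch4 stood at 5.20 and 6.26 TPM, between Dll1 and Dll4 in the order, and Notch1 at 36.5 TPM was above Notch2 at 36.0 TPM in replicate 1 and below it in replicate 2 (39.2 against 40.1 TPM). The steps from Jag2 to Dll1 and from Dll1 to Notch4 were then 0.22 and 0.05 on the log2 scale, against 0.72 and 0.73. The difference of Jag2 and Notch4 given above thus held by the estimated TPM and not by the posterior mean.

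Each gene was led by 1 protein-coding transcript, the same in both libraries for all 10. Notch2, Notch3 and Jag2 have 1 transcript in the tables, and Dll4-201 held 100% of the TPM of Dll4. For the 7 genes with several transcripts the median share of the leading one was 92.6% of TPM, compared with 70.9% over the 9619 expressed protein-coding genes with several. Jag1-201 held 97.0% and 95.4% of TPM in replicates 1 and 2, Hes1-201 95.8% and 93.9%, and Hey1-201 93.2% and 92.0%. The shares were lower for Notch1-201, at 78.8% and 81.2%, Notch4-201, at 74.9% and 64.7%, and Dll1-201, at 73.6% and 61.0%. These leading transcripts carry the long receptor and ligand reading frames. Notch1-201 has 34 exons and 7593 coding bases, Notch4-201 has 30 exons and 5892 coding bases, and Dll1-201 has 11 exons and 2166 coding bases in the reference annotation.

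The remaining TPM of Notch1, Notch4 and Dll1 lay mostly in short transcripts with few reads. Notch1-202, a noncoding transcript of 406 nt, held 12.35% and 12.56% of the TPM of Notch1 in replicates 1 and 2 from 29.5 and 29.7 expected counts. Notch4-210, of 619 nt, held 20.4% and 28.7% of the TPM of Notch4 from 7.38 and 12.9 counts. Dll1-204, a retained-intron transcript of 751 nt, held 8.76% and 22.1% of the TPM of Dll1 from 7.31 and 15.2 counts. By expected counts rather than TPM, the leading transcript held 98.0% and 98.4% of Notch1, 96.3% and 94.0% of Notch4 and 94.1% and 89.9% of Dll1. A gene's TPM is the sum over its transcripts, and a short transcript adds much TPM for few reads.

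Most bases of the short transcripts named above are also exons of the leading one. A further one, Notch1-207, held 6.63% and 4.37% of the TPM of Notch1, with 40.6% of its bases in exons of Notch1-201. Of Notch1-202, 92.1% of the bases lie in exons of Notch1-201, of Notch4-210 87.7% in exons of Notch4-201, and of Dll1-204 87.0% in exons of Dll1-201. What tells them apart is a stretch of intron joined directly to an exon, 32 bases long in Notch1-202, 76 in Notch4-210 and 98 in Dll1-204. The sequences here show that joint for 5 such transcripts, because reads over it separate them from the spliced messenger RNA. Each is 30 bases of intron in capitals and 30 bases of coding exon of the leading transcript in lower case, 5′ to 3′ on the gene's strand, from the GENCODE M21 transcript sequences on GRCm38.
Notch1-202: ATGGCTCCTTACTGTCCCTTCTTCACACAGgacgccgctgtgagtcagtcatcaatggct
Notch4-210: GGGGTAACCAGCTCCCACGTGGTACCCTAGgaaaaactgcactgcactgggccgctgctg
Dll1-204: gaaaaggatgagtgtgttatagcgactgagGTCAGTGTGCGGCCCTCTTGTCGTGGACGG
Jag1-202: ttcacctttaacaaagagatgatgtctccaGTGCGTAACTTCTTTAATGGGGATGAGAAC
Hes1-203: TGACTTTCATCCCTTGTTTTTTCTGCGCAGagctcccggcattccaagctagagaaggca

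The Notch1-202 stretch is chr2:26469688-26469747 on the minus strand and ends its intron before exon 24 of Notch1-201. The Notch4-210 stretch is chr17:34587087-34587146 on the plus strand, before exon 29 of Notch4-201, and the Hes1-203 stretch is chr16:30066133-30066192 on the plus strand, before exon 3 of Hes1-201. In these 3 the capitals end in AG, the usual last bases of an intron. The Dll1-204 stretch is chr17:15368104-15368163 on the minus strand, after exon 10 of Dll1-201, and the Jag1-202 stretch is chr2:137084892-137084951 on the minus strand, after exon 23 of Jag1-201. Their capitals begin with GT, the usual first bases of an intron. Jag1-202 and Hes1-203 took smaller shares, 2.99% and 4.56% of the TPM of Jag1 and 1.06% and 1.78% of that of Hes1. Total RNA also holds unspliced precursor, and reads from a precursor and from a finished transcript that keeps the intron cannot be told apart at such a joint.

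**Figure D2:**
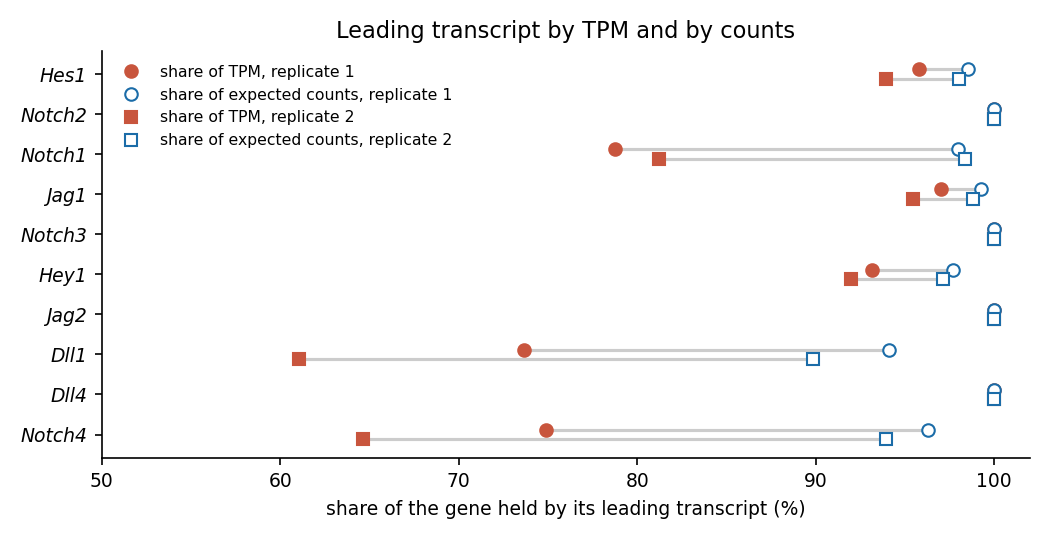
Share of each gene held by its leading transcript (percent, axis from 50), as a share of TPM (filled) and of expected counts (open), in replicate 1 (circles) and replicate 2 (squares). For Notch1, Notch4 and Dll1 the share of TPM is far below the share of counts, as in Dll1 with 61.0% against 89.9% in replicate 2.

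Taken without the short transcripts, Notch2 and Notch1 lay further apart, and the order of Dll1 and Dll4 changed. The leading transcript alone stood at 26.7 and 29.1 TPM for Notch1 in replicates 1 and 2 and at 36.9 and 41.1 TPM for Notch2. That is a log2 ratio of 0.48 in favour of Notch2, beyond the spread of 0.33 used for this pair above. The step from Notch1 to Jag1 narrowed, with means of 27.9 TPM for Notch1-201 and 25.4 TPM for Jag1-201, against 34.9 and 26.4 TPM for the whole genes. For Dll1 it stood at 4.10 and 3.01 TPM and for Dll4 at 3.89 and 4.75 TPM, which turned the ratio of Dll1 over Dll4 to -0.28. Notch4-201 stood at 2.26 and 2.61 TPM, the lowest leading transcript of the 10 genes, and Jag2-201 at 7.62 and 6.53 TPM. By posterior mean, Notch4-201 held 41.05% and 39.19% of its gene, beside 96.3% and 94.0% of the counts. Transcripts with 0 counts, such as Notch4-202 with 7.19% and 5.6%, held part of the rest. The calculation by leading transcript was added after the values were seen.

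Genes on the opposite strand overlap 4 of the Notch genes with their exons. Gm13568 (chromosome 2, 26457144 to 26458316) shares 414 of its 446 exonic bases with the 3′ part of Notch1-201 and stood at 22.7 and 20.5 TPM, from 181 and 153 counts. 0610009E02Rik, which also overlaps Notch1, stood at 1.5 and 2.74 TPM, and Gm17276 (Notch3), A930024N18Rik (Dll1) and Gm14207 (Dll4) stayed below 1 TPM in both. The strand setting of the libraries was not stated, so reads of Notch1 and Gm13568 in the shared bases cannot be assigned with certainty. Against 5875 and 5971 counts of Notch1, the counts of Gm13568 are few.

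The stretch upstream of the RefSeq start was described because the receptor of lowest level, Notch4, differed there from the other receptors. RefSeq promoters on GRCm38.p6 were found for 8 of the 10 genes, and not for Hes1 and Hey1. In the 250 bases before that start, Notch2 has 34 CG pairs and Notch4 has 4, with an observed over expected ratio of CG (the number of CG pairs relative to what the C and G content gives) of 1.06 and 0.226. Notch1 and Notch3 have 16 and 17 pairs, at 0.588 and 0.595. Dll4 was at 0.557. The RefSeq starts of the other ligands do not match those of their leading transcripts. The window of Jag2, at 1.14, lies wholly inside Jag2-201, that of Jag1, at 0.980, has 124 of its bases inside Jag1-201, and of the 2 windows of Dll1 that at 0.825 has 153 inside Dll1-201 and that at 0.664 has none. The window of Notch4 has 27 bases inside Notch4-201, none of them among those shown, and those of Notch1, Notch2, Notch3 and Dll4 have none. Protein-coding genes at 1 TPM or more in both libraries (10276 with a window) had a median of 0.728, and the other 6041 had 0.201. Among the former, genes at a mean of 1 to 5 TPM, the range of Notch4, had a median of 0.575, and 33.2% of these 1819 genes were under 0.4, as Notch4 is. The first 200 bases of the window are shown for the receptors with the highest and the lowest ratio, with CG in capitals.
Notch2: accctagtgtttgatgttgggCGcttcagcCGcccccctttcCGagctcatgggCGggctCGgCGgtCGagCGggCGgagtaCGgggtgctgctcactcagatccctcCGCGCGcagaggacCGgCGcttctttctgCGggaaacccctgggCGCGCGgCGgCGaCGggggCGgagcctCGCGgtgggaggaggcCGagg
Notch4: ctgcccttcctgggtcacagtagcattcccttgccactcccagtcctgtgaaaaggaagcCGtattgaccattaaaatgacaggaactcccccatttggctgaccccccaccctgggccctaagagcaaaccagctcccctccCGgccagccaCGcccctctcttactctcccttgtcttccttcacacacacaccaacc

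The Notch2 stretch is chr3:98013288-98013487 and the Notch4 stretch chr17:34564045-34564244, both on the plus strand. The stretch of Notch2 holds 26 capital pairs and that of Notch4 holds 3. The letters GTGGGAA and GTGAGAA, forms of the site bound by Rbpj, were searched on both strands of the 250 bases. They occurred in 0 of the 8 Notch genes and in 8.86% of 16317 protein-coding genes with a window. A match or its lack in this window says nothing about binding elsewhere.

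The rest of the pathway was expressed as well. Among 47 further genes, 41 were at 1 TPM or more in each library, and the remaining 6 were under 1 TPM in each. All 10 genes of receptor cleavage were expressed, led by the gamma-secretase subunits Psenen at 106 ± 2.89 and Ncstn at 77.7 ± 2.55 TPM (SD, n = 2). Adam10, the protease of the ligand-triggered cut, stood at 46.1 ± 1.96 TPM. Reads of the similar genes Aph1b and Aph1c may be split between them. All 9 genes of the nuclear complex were expressed, led by the coregulator Snw1 at 91.3 ± 4.57 TPM and Rbpj itself at 37.6 ± 2.15 TPM. Rbpj was thus at a level close to those of Notch1 and Notch2.

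Of the enzymes that add sugars to the receptors, all 5 were expressed. The O-glucosyltransferase Poglut1 led at 49.9 ± 5.95 TPM, before the Fringe genes Rfng at 29.1 ± 1.25 and Lfng at 12.9 ± 0.368 TPM. Among 11 genes of ubiquitination and endocytosis, 10 were expressed, led by the Deltex gene Dtx3 at 131 ± 15.0 TPM, the ubiquitin ligase Itch at 39.7 ± 2.47 TPM and the Notch antagonist Numb at 24.4 ± 1.23 TPM. Neurl1b stood at 0.590 ± 0.0990 TPM.

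Ligands and targets outside the 10 genes spanned a far wider range. Dlk1, an imprinted noncanonical ligand without the domain that activates receptors, stood at 503 and 377 TPM, above each of the 10 genes. Dlk2 and Dner, also noncanonical, stood at 7.85 ± 0.113 and 4.43 ± 0.672 TPM, and the divergent ligand Dll3 at 0.620 ± 0.0141 TPM. Of 8 further targets, 4 were expressed, led by Hes6 at 70.2 ± 0.233 TPM, the feedback inhibitor Nrarp at 20.7 ± 0.339 TPM and Heyl at 8.75 ± 1.97 TPM. Hes6 is a relative that opposes Hes1 and is not itself a usual Notch target. Hes5, a target in neural progenitors, and Hes7, a gene of the segmentation clock, stood at 0.415 ± 0.247 and 0.415 ± 0.262 TPM, Hes2 had 0 and 2 counts, and Hes3 had 0 in both libraries, which allows up to 3 counts in each.

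**Figure D3:**
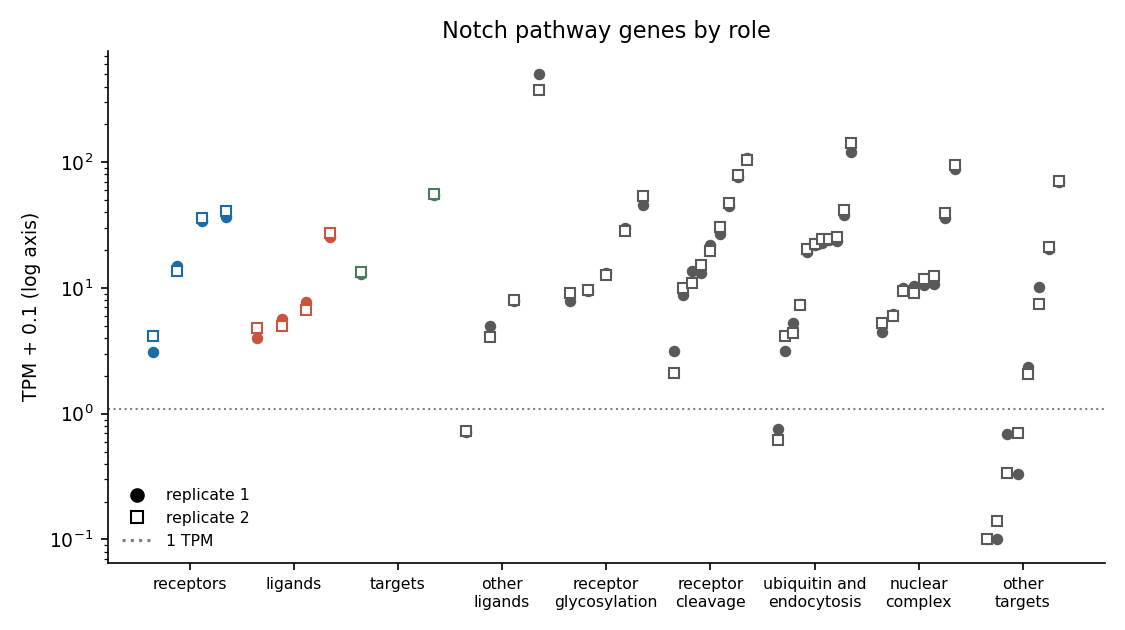
TPM + 0.1 (log axis) of the 10 genes and 45 of the 47 further pathway genes by role, each gene at 1 place on the x axis with replicate 1 as a filled circle and replicate 2 as an open square. The genes drawn for receptor cleavage, glycosylation and the nuclear complex all lie above the dotted line at 1 TPM, while 4 of 8 further targets lie below it.

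The libraries differed little for the 10 genes. The median absolute log2 ratio of TPM between them was 0.14, the same as over the 15307 genes whose mean reached 1 TPM, and all 10 were within a 2-fold difference. With its sign kept, the median of replicate 2 over replicate 1 was 0.07 in both sets. A TPM slightly higher in replicate 2 was thus usual in these libraries. Counts were then compared by an exact binomial test, two-sided, that takes TMM library sizes (edgeR's scaling) as given, with Benjamini-Hochberg adjustment over 19153 genes. This test sets 1 library against 1 library and covers counting error only. It called 4 of the 10 genes, 1 higher and 3 lower in replicate 2, where it called 27.5% of all genes tested (12.7% higher and 14.8% lower) and 33.6% of 10580 genes with counts in the range of these 10. The share is thus near the background. The split was 2 higher and 3 lower with total counts as the scaling and 3 and 3 with spike-in counts.

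The 4 called genes were Notch2, Notch3, Jag2 and Dll1. Notch2, with 8824 and 9188 counts, was higher in replicate 2 by 0.08 on the log2 scale (95% exact interval 0.04 to 0.12, adjusted p = 0.00172 by the exact binomial test). Notch3, with 2714 and 2314 counts, was lower, at -0.21 (-0.29 to -0.13). Jag2, with 693 and 554 counts, was lower, at -0.30 (-0.47 to -0.14). The largest difference by counts was that of Dll1, with 349 and 250 counts, at -0.46 (-0.70 to -0.22, adjusted p = 0.000953 by the exact binomial test). By TPM, Dll1 moved less, from 5.57 to 4.93, and the largest log2 difference was 0.41, that of Notch4 (3.02 and 4.04 TPM). Notch1, Notch4, Jag1, Dll4, Hes1 and Hey1 were not called, and their intervals stayed between -0.20 and 0.43. All 10 ratios lay inside the range from -0.61 to 0.51 that held the middle 95% of 14649 expressed genes. With the spread of a typical gene counted as error, the exact test of edgeR (1 dispersion for all genes, estimated from these 2 libraries) called 0 of the 10 genes after adjustment and 0 at an unadjusted p under 0.05, and 0.656% of 16920 genes after adjustment (6.57% unadjusted).

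Of the 47 further pathway genes 45 could be tested, and 13 were called by the exact binomial test, 6 higher and 7 lower in replicate 2. That is 28.9% of the list, near the 27.5% of all genes tested. The split was 13 higher and 6 lower with spike-in scaling and 3 and 8 with DESeq2 size factors, so a direction for the list depends on the scaling. The median log2 ratio of the 45 was -0.02, and -0.00081 over all genes tested. Dlk1, at -0.44, Dner, at -0.42, Heyl, at -0.49, and Psen2, at -0.36, were among the lower ones, and Dtx1, at 0.53, Maml3, at 0.19, and Poglut1, at 0.18, among the higher ones. Of the 13, Dtx1 alone lay outside the middle 95% of expressed genes. Psen2, Dtx1 and Maml3 were chosen for mention after their values were seen. By the exact test of edgeR, 0 of 43 passed after adjustment, and 3 had an unadjusted p under 0.05 (Dlk1, Dtx1 and Heyl), or 6.98% beside 6.57% of all genes.

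**Figure D4:**
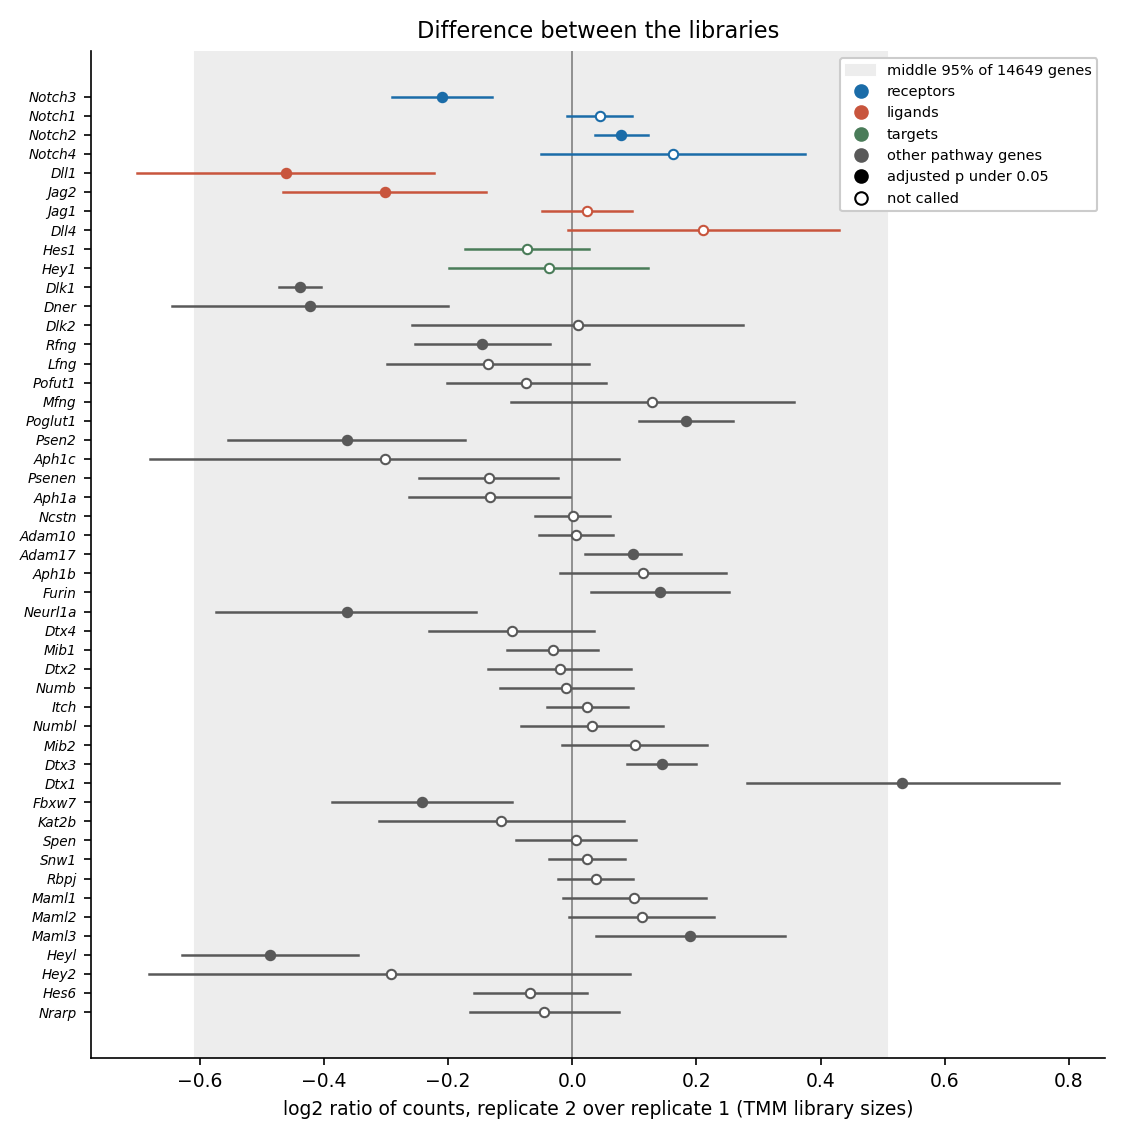
Log2 ratio of counts, replicate 2 over replicate 1 with TMM library sizes, of the 10 genes and 39 of the 41 further pathway genes at 1 TPM or more in both libraries, with 95% exact intervals that cover counting error. Filled points are called by the exact binomial test, and the grey band from -0.61 to 0.51 holds the middle 95% of 14649 genes.

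Marker lists of the cell types of the limb were read beside these ratios. Sums are in TPM, while markers given as higher or lower in replicate 2 were called so by the exact binomial test on counts. In bulk tissue, fewer cells of a type and less RNA per cell cannot be told apart. The 6 endothelial markers, led by Egfl7, Esam and Pecam1, summed to 207 TPM in both libraries, and only Tie1 was called by the exact binomial test (lower in replicate 2). The 4 arterial markers, led by Efnb2, Gja4 and Sox17, summed to 59.8 and 69.4 TPM in replicates 1 and 2, with Efnb2 higher and Gja5 lower. Without Efnb2 the other 3 summed to 27.7 and 28.4 TPM. Notch4 and Dll4, genes of endothelium, were not called. The 5 mural markers, led by Acta2, Pdgfrb and Cspg4, summed to 329 and 272 TPM, with Acta2 and Rgs5 lower and Pdgfrb higher. Without Acta2 the other 4 summed to 78.2 and 82.9 TPM. The median log2 ratio of counts of all 5 was -0.18, where Notch3 was at -0.21. The 5 epidermal markers, led by Perp, Krt14 and Sfn, were all lower, with sums of 1297 and 1127 TPM, beside the lower Jag2. The 6 muscle markers, led by Actc1, Acta1 and Myog, were all lower, with sums of 1908 and 1309 TPM, beside the lower Dll1. The 4 cartilage markers, led by Col2a1, Sox9 and Matn1, summed to 780 and 786 TPM, with Sox9 higher and the other 3 lower. Col2a1, lower by counts, stood at 584 and 587 TPM in replicates 1 and 2. The 4 mesenchyme markers were all higher, with sums of 307 and 381 TPM. The exact binomial test called 72.2% of the markers it could test, beside 27.5% of all genes tested. Of the 12853 genes with 100 or more counts in each library, a level most of these markers reach, it called 34.2%. By the exact test of edgeR, 1 of the 35 markers tested was called after adjustment (Acta1, lower), beside 0.656% of all genes. At an unadjusted p under 0.05 there were 8, or 22.9% beside 6.57% of all genes. The part of these differences in the ratios of the Notch genes was not tested.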

How the data were processed

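Total RNA of 2 limb libraries was sequenced. The deposited expected counts estimate how many reads came from each gene or transcript, and the deposited TPM values correct them for length and library size, per the file headers. The percent of a gene's TPM per transcript and credibility bounds of TPM (a signal that is never negative, of a level not given in the sources used here) were also deposited by the authors. The build was mm10 with annotation M4, per the labels and the notes deposited beside the tables. Names of the aligner and quantifying program were not given in the sources used here.

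Symbols, types and positions came from GENCODE M21 on GRCm38 by Ensembl identifier (42462 of 43346 matched). The M21 models of Notch2, Notch3 and Jag2 differ in length from those of the tables. They have 10500 against 10506 bases for Notch2, 8016 against 8044 for Notch3 and 5106 against 4054 for Jag2. The TPM of Jag2 rests on the shorter model. Counts were rounded for tests. Python 3.11.15 with scipy 1.17.1, R 4.3.3, edgeR 4.0.16 and DESeq2 1.42.0 were used. The minimum for a test was 10 counts summed over both libraries, and the threshold 0.05. The test was checked on simulated counts with counting error only, so the check does not cover the further spread between real libraries. Library sizes excluded spike-ins. Alternatives were TPM minimums, pseudocounts, posterior means, scalings, no count filter, edgeR's exact test and each library alone. The members and gene lists were chosen with earlier results of these data known. Named genes were the 10 members, the 3 of highest mean TPM in each pathway and marker list, and pathway genes below 1 TPM in both libraries. Other genes named were chosen after their values were seen. The values of 2 pathway genes are not reported here, though the counts include them.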

Additional observations from a re-analysis of the deposited data

How the results depend on the processing

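All 10 Notch genes were counted as expressed under TPM minimums of 0.5 and 2, by posterior mean TPM and in each library alone. Calls between the libraries fell from 4 to 0 for the 10 genes and from 13 to 0 for the further pathway genes with edgeR's exact test, which takes the typical difference between these libraries as error (0 and 3 had an unadjusted p under 0.05). With posterior mean TPM the log2 ratio of receptors over ligands was 1.14, Notch2 over Notch1 0.0052, Notch1 and Notch2 over Notch3 and Notch4 1.95, and Jagged over Delta-like ligands 1.64. With the leading transcript only, a setting added after the data were seen, receptors over ligands was 1.05, Notch2 over Notch1 0.48, Jagged over Delta-like ligands 2.03, Hes1 over Hey1 2.13, and Dll1 over Dll4 reversed to -0.28. A pseudocount of 1 gave 1.71 for Jagged over Delta-like ligands and 2.02 for Hes1 over Hey1. The cause of these shifts was not tested, apart from the pseudocount, which pulls ratios toward 0 by construction. With spike-in scaling the ratio of replicate 2 over replicate 1 of Hey1 reversed to 0.023, not called, and Notch1 and Dll4 were called higher, at 0.10 and 0.27. The split of all genes called moved from 2439 higher and 2835 lower to 4167 and 1871 with spike-in scaling, which shifted the median by 0.06, and to 3334 and 2233 with total counts. With total counts Notch1 was called, at 0.08. Depth limits Notch4, Dll1 and Dll4 most. No gene was likened to another by its pattern, since 2 libraries give every pair a correlation of 1 or -1.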
